A study of Xenopus laevis with 9 samples.

Results

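Expression of 4 genes of the Hedgehog pathway was followed across 3 tissues of Xenopus laevis, the African clawed frog. They were the ligand gene shh.L (gene ID 398047), the inhibitor gene hhip.L (gene ID 380097), the transcription factor gene gli3.L (gene ID 397837) and the homeobox gene nkx2-2.S (gene ID 373624). All probe sets annotated with 1 of these symbols alone were taken, which gave 5 of the 15611 probe sets on the array, 2 of them for hhip.L. These were 4 of the 7531 genes that the array names by probe sets with a single symbol. The samples were primary mouth, anterior dorsal tissue, and ventral tissue that included the cement gland, all dissected from embryos at stage 26, with 3 samples of each and 1 Affymetrix array per sample. The labels give no treatment, genotype or strain for any group, and each sample was a pool of 75 to 100 embryos. Whether replicate pools were taken from different clutches is not stated, and each p-value therefore measures the spread among these 9 samples alone, part of which may be technical.

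Hedgehog proteins are secreted signals. Shh binds the receptor Patched, which then stops holding back the membrane protein Smoothened, and Smoothened changes the Gli transcription factors in the cell. Without signal Gli3 is cut to a repressor, and with signal less of that repressor is made. Hhip sits at the cell surface or is released, binds the ligand and lowers signalling, and its gene is itself a target of the pathway. In vertebrate embryos Shh comes from notochord, floor plate, ventral forebrain and foregut endoderm, and Nkx2-2 is a homeobox factor of the ventral neural tube that depends on it. Hedgehog signalling is known to bear on the size of the primary mouth in Xenopus. In these terms shh.L is the ligand, hhip.L an inhibitor and target, gli3.L a transducer and nkx2-2.S a target in neural tissue.

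The genes were not highest in the same tissue. Primary mouth exceeded each flanking tissue in both hhip.L probe sets, gli3.L and nkx2-2.S were highest in anterior dorsal tissue, and shh.L was lowest in ventral tissue. Signals are MAS5 intensities on a linear scale, differences were fitted as log2(signal + 16), and a difference passed at a limma adjusted p under 0.05 over 10011 probe sets. In pooled tissue, fewer cells of a type and less RNA per cell cannot be told apart.

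The control probe sets separated the arrays into 2 sets that the labels do not name. The beta-actin ratio, signal at the 3' over that at the 5' end of the transcript, was 5.48 to 11.2 on 4 arrays (anterior dorsal 1, primary mouth 1a, primary mouth 2 and ventral 1) and 1.46 to 2.03 on the other 5. A bacterial control probe set, dap at its 3' end, separated the same arrays, at 2268 to 3008 on the 4 and 540 to 858 on the 5. Each tissue had arrays in both sets, and values within each set are given beside the pooled ones. Anterior dorsal and ventral tissue have 1 array each in the set of higher ratio, and primary mouth has 1 in the set of lower ratio. Differences with such a lone array are given as values with no p, and a p is given only for anterior dorsal against ventral tissue in the set of lower ratio, with 2 arrays each. The label of the ventral tissue was checked on 6 cement gland genes such as ag1 and agr2, which code for secreted proteins of that organ. All 6 were higher there than in anterior dorsal tissue, against 14.1% of all probe sets tested, and 5 were higher there than in primary mouth, against 10.1%. The remaining gene, pitx1.L, had a mean of 213 in primary mouth and 143 in ventral tissue and did not pass. The summed signal of the 6 was 17005 to 23384 in ventral tissue, 5445 to 8929 in primary mouth and 2922 to 3890 in anterior dorsal tissue.

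The ligand gene shh.L read 322, 209 and 109.7 in primary mouth 1a, 2 and 3. In anterior dorsal tissue it read 115, 133 and 117. In ventral tissue the signals were 53.4, 58.2 and 35.9. All 6 arrays of the first 2 tissues lay above all 3 ventral arrays, while primary mouth 3 lay below every anterior dorsal array. Means were 214 ± 106 (SD, n = 3), 122 ± 9.54 and 49.2 ± 11.7. Primary mouth exceeded ventral tissue by 1.72 ± 0.30 (SE) on the log2 scale (95% interval 1.08 to 2.36, limma adjusted p = 0.00198), a ratio of mean signals of 4.34. The value was 1.99 within the arrays of higher actin ratio and 1.02 within those of lower ratio.

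Anterior dorsal tissue exceeded ventral tissue in shh.L by 1.09 ± 0.30 (95% interval 0.45 to 1.74, adjusted p = 0.0169). Leaving out anterior dorsal 2 (adjusted p = 0.061) or ventral 3 (0.0722) ended that call. Within the arrays of higher actin ratio the value was 0.92, and within those of lower ratio it was 1.18 (adjusted p = 0.0038).

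Between primary mouth and anterior dorsal tissue the shh.L difference did not pass, at 0.63 ± 0.30 (95% interval -0.02 to 1.27, adjusted p = 0.235). The 3 primary mouth arrays spanned a ratio of 2.94 from lowest to highest, against 1.15 in anterior dorsal tissue. Both high primary mouth arrays belong to the set of higher actin ratio and the low one to the other. Against anterior dorsal 1 alone, in the set of higher ratio, the difference was 1.07, and with primary mouth 3 alone, in the set of lower ratio, it was -0.16. It was 0.49 (adjusted p = 0.218) with the set as a term. Leaving out primary mouth 3 gave 1.0 (0.0123), and leaving out primary mouth 1a gave 0.29 (0.581). The part of RNA quality or of array processing in this spread was not tested.

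**Figure D1:**
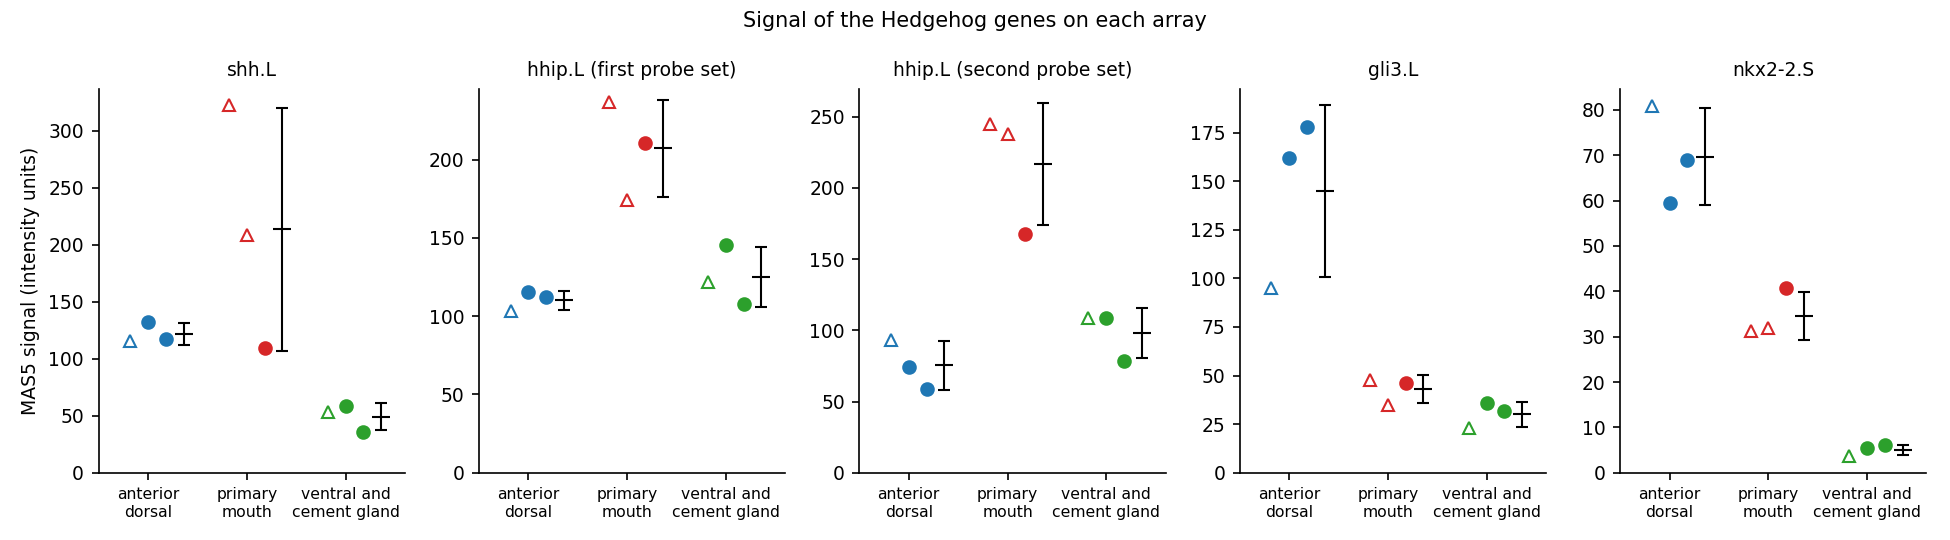
MAS5 signal of each probe set on each array (points) in the 3 tissues, with the mean and SD of 3 arrays in black. Open triangles are arrays with a 3' to 5' beta-actin ratio of 5.48 to 11.2 and filled circles those with 1.46 to 2.03. The signal of shh.L in primary mouth runs from 109.7 to 322, whereas nkx2-2.S stays at 3.74 to 6.03 in ventral tissue.

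Marker genes of tissues that can carry shh RNA were read beside it. Of the floor plate and notochord list, 7 genes were on the array and 3 were tested, namely shh.L itself, not.L and not.S, where not is a notochord homeobox gene. The 2 not copies differed. In primary mouth not.L fell below its anterior dorsal level (-2.01, adjusted p = 8.96e-05), whereas not.S had mean signals of 34.7 and 32.7 there and did not pass (-0.02, adjusted p = 0.981). Means of not.L were 13.7 in primary mouth and 9.36 in ventral tissue, under the level used to filter low signals. It was thus tested only through anterior dorsal tissue (mean 104), where it is high, and its call against that tissue was favoured by the filter. The gene ntn1.L, a floor plate guidance gene, read 1.49 to 11.2 over all arrays. It was not tested, and neither were tbxt.S, admp.S and sim2.S. Means in primary mouth and anterior dorsal tissue were 18.8 and 11.8 for tbxt.S and 21.1 and 11.8 for admp.S. They were 13.3 and 12.1 for sim2.S and 5.25 and 7.96 for ntn1.L. The summed signal of this list, shh.L included, was 181 to 415 in primary mouth, 253 to 335 for anterior dorsal and 109 to 134 for ventral tissue. In primary mouth shh.L alone had a mean of 214, so the sum there largely repeats it. In anterior dorsal tissue shh.L had a mean of 122 and not.L of 104, and in ventral tissue shh.L had 49.2 and not.S 24.4. As the sum includes shh.L, it is no separate measure of floor plate and notochord. Of 5 tested pharyngeal endoderm genes, which included both copies of nkx2-3, all 5 were lower in anterior dorsal than in ventral tissue. That held for 14.1% of all probe sets tested. In primary mouth 4 of the 5 genes exceeded anterior dorsal tissue, against 4.68% of all probe sets. Against ventral tissue 3 of the 5 were lower in primary mouth and none was higher. Over all probe sets tested, 10.1% were lower and 4.42% higher in that contrast. The endoderm list summed to 291 to 384 in primary mouth, 66.7 to 93.9 for anterior dorsal and 477 to 534 for ventral tissue. The ventral forebrain and hypothalamus list, described further below, summed to 717 to 818 in primary mouth, 947 to 1177 for anterior dorsal and 68.3 to 152 for ventral tissue. The part of any of these tissues in the shh.L signal was not tested.

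The inhibitor gene hhip.L was measured by 2 probe sets, the first being the one with the higher mean signal over all arrays. It read 237, 174 and 210.5 in primary mouth 1a, 2 and 3. The values were 104, 115 and 112 in anterior dorsal and 122, 145 and 108 in ventral samples. Every primary mouth array was above every array of the other tissues, which overlapped each other. Means were 207 ± 31.2, 110.2 ± 6.0 and 125 ± 19.0 (SD, n = 3).

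The second probe set read 244, 238 and 168 in primary mouth. Its signals were 93.3, 74.1 and 58.7 in anterior dorsal tissue and 109, 108 and 78.1 in ventral tissue. It showed the same order of tissues with larger ratios, and primary mouth again stood clear of both. Mean signals were 217 ± 42.6, 75.4 ± 17.4 and 98.4 ± 17.6.

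Against anterior dorsal tissue, hhip.L was higher in primary mouth by 0.81 ± 0.17 on the first probe set (adjusted p = 0.00845) and by 1.35 ± 0.21 on the second (adjusted p = 0.00108). Against ventral tissue the differences were 0.66 ± 0.17 (adjusted p = 0.0208) and 1.02 ± 0.21 (adjusted p = 0.00555). The ratios of mean signals were 1.88 and 2.87 in the first contrast and 1.66 and 2.20 in the second. Anterior dorsal and ventral tissue did not differ past the threshold, at -0.15 (95% interval -0.52 to 0.22) and -0.33 (-0.78 to 0.12).

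The hhip.L difference was above 0 in both sets of arrays. On the first probe set it was 0.88 and 0.81 against anterior dorsal and 0.67 and 0.68 against ventral tissue, within the sets of higher and lower ratio. On the second probe set these values were 1.23 and 1.16, and 1.04 and 0.76. With all arrays but 1, the call of the first probe set against ventral tissue was lost without primary mouth 1a (adjusted p = 0.0824), ventral 1 (0.0502) or ventral 3 (0.0943), and that of the second held in each case. The call of the first was also lost in a fit of primary mouth and ventral tissue alone (0.0529).

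Of the head mesenchyme and neural crest list, 7 genes were on the array and 4 were tested. In primary mouth 2 of the 4 exceeded the anterior dorsal level and all 4 the ventral level. The genes sox10.L, snai2.L and snai2.S did not pass the filter on low signals and were not tested. Means in primary mouth, anterior dorsal and ventral tissue were 11.97, 36.05 and 14.12 for sox10.L and 5.75, 13.3 and 10.04 for snai2.L. For snai2.S they were 6.46, 8.53 and 14.4, and each of these genes was lowest in primary mouth. The list summed to 1110.2 to 1696 in primary mouth, 653 to 783 for anterior dorsal and 368 to 513 for ventral tissue. From the list for oral and anterior ectoderm, 9 genes were tested. Primary mouth exceeded anterior dorsal tissue in 6 and fell below it in 2, and it exceeded ventral tissue in 4, with sums of 1596 to 2492, 798 to 949 and 766 to 1161. Over all probe sets tested, primary mouth was higher in 4.68% and lower in 4.87% against anterior dorsal tissue, and higher in 4.42% against ventral tissue. The part of mesenchyme, neural crest or ectoderm in the hhip.L signal was not tested.

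The Gli gene gli3.L had its highest signals in anterior dorsal tissue, at 94.8, 162 and 178 in samples 1, 2 and 3. It read 47.8, 34.6 and 46.2 in primary mouth and 23.2, 35.8 and 31.5 in ventral tissue. The anterior dorsal arrays stood clear of all others, and the primary mouth and ventral arrays overlapped. All 3 ventral arrays lay under the 40th percentile of their array, the level used to filter low signals. Mean signals were 145 ± 44.1 (SD, n = 3), 42.9 ± 7.21 and 30.2 ± 6.39.

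Primary mouth was lower than anterior dorsal tissue in gli3.L by -1.42 ± 0.22 on the log2 scale (95% interval -1.90 to -0.93, adjusted p = 0.00124), with a mean signal 3.38 times as high in anterior dorsal tissue. Anterior dorsal exceeded ventral tissue by 1.77 ± 0.22 (adjusted p = 9.5e-05). Primary mouth and ventral tissue differed by 0.35 (95% interval -0.13 to 0.84, adjusted p = 0.328). The lowest anterior dorsal array, number 1, belongs to the set of higher actin ratio. Within that set the primary mouth difference was -0.96 and within the other -1.58. For anterior dorsal against ventral tissue these values were 1.5 and 1.91, the latter with an adjusted p of 0.000124.

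The dorsal forebrain and dorsal neural tube list moved in the same contrasts. Of its 10 tested genes, 7 were lower in primary mouth against anterior dorsal tissue and none was higher, and 7 were higher and 1 lower in anterior dorsal than in ventral tissue. Between primary mouth and ventral tissue 4 were higher and 3 lower. Over all probe sets tested, 4.87% were lower and 4.68% higher in the first of these contrasts. In the second 10.5% were higher and 14.1% lower, and in the third 4.42% and 10.1%. The genes emx2.L, eomes.L and zic1.S had means of 9.35, 7.42 and 26.5 in primary mouth and 10.1, 5.31 and 8.43 in ventral tissue. These lie under the filter level, so the 3 genes were tested only through anterior dorsal tissue, where they are high. Their calls against that tissue were favoured by the filter. The list summed to 1067 to 1836 in primary mouth, 2781 to 3338 for anterior dorsal and 1318 to 1533 for ventral tissue. The gene pax3.L alone had means of 896, 666 and 890 in these tissues and passed in no contrast. In primary mouth and ventral tissue the sum therefore largely repeats pax3.L. The part of dorsal forebrain or dorsal neural tube in the gli3.L signal was not tested.

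The ventral neural gene nkx2-2.S read 80.8, 59.5 and 68.9 in anterior dorsal 1, 2 and 3. It read 31.3, 31.9 and 40.7 in primary mouth and 3.74, 5.35 and 6.03 in ventral tissue. No pair of tissues overlapped. The ventral signals lay between the 8.37th and 13.7th percentile of their arrays, which was not read as absence, and only 1 of 3 primary mouth arrays exceeded the 40th percentile. Means were 69.7 ± 10.7 (SD, n = 3), 34.6 ± 5.27 and 5.04 ± 1.17.

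All 3 contrasts of nkx2-2.S passed. It was tested through anterior dorsal tissue, where it is high, so its calls against that tissue were favoured by the filter. Anterior dorsal exceeded ventral tissue by 2.02 ± 0.16 (adjusted p = 2.12e-06) and primary mouth exceeded ventral tissue by 1.26 ± 0.16 (adjusted p = 0.000202). Primary mouth was lower than anterior dorsal tissue by -0.76 ± 0.16 (95% interval -1.10 to -0.41, adjusted p = 0.00812). The sizes against ventral tissue depend on how low signals are treated. With log2(signal + 1) they were 3.56 and 2.57, and with log2(signal + 32) they were 1.45 and 0.84.

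Within the arrays of higher and lower actin ratio, nkx2-2.S in primary mouth exceeded ventral tissue by 1.27 and 1.39. Anterior dorsal exceeded ventral tissue by 2.29 and 1.88, the latter with an adjusted p of 0.000129. Primary mouth lay below anterior dorsal tissue in both sets, at -1.02 and -0.50.

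Of the ventral forebrain and hypothalamus list, 5 of 12 genes were tested, and all 5 exceeded the ventral level in both other tissues. The shares over all probe sets tested were 4.42% for primary mouth and 10.5% for anterior dorsal tissue. The 5 include nkx2-2.S, so the counts and the list sum partly repeat it. Between primary mouth and anterior dorsal tissue 2 of the 5 passed, both lower in primary mouth, against 4.87% of all probe sets. They were nkx2-2.S itself and nkx2-1.L, a forebrain homeobox gene that is also in the Hedgehog list. The eye field and forebrain genes six3.L, six6.L and six6.S had values of -0.29, -0.33 and -0.16 in that contrast and did not pass (adjusted p = 0.33 to 0.8). The list summed to 717 to 818 in primary mouth, 947 to 1177 for anterior dorsal and 68.3 to 152 for ventral tissue. The part of ventral forebrain in the nkx2-2.S signal was not tested.

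**Figure D2:**
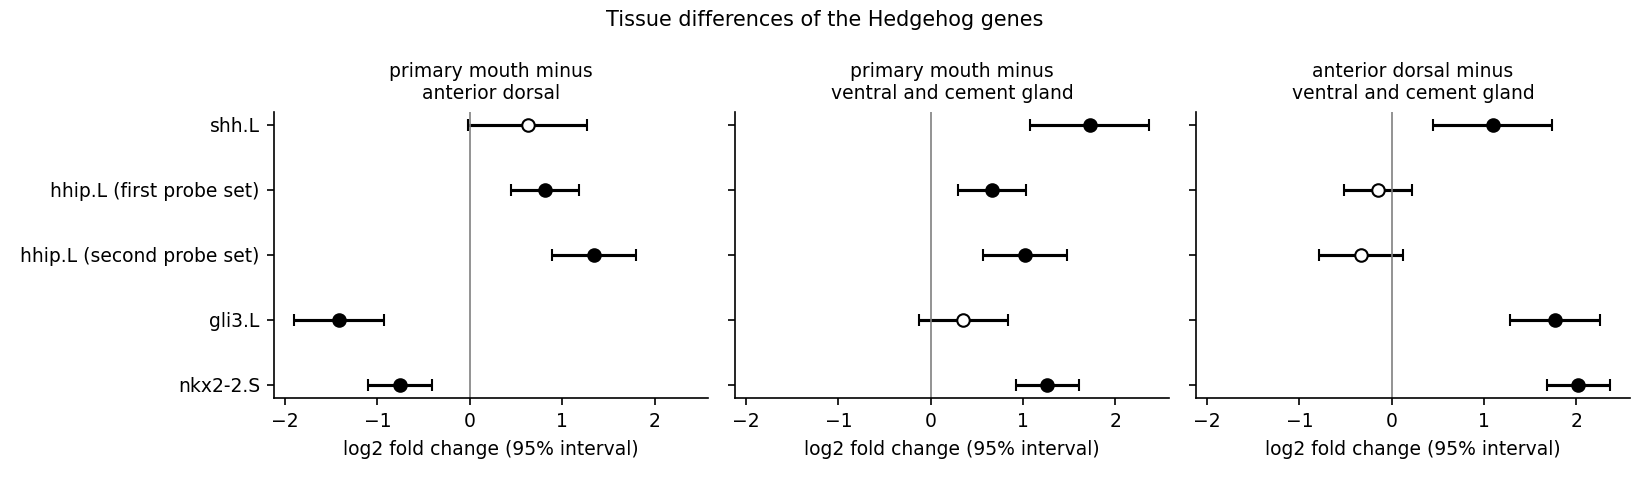
Log2 fold changes on the log2(signal + 16) scale with 95% intervals from limma for the 5 probe sets in the 3 contrasts, where filled points passed an adjusted p of 0.05. The hhip.L probe sets are at 0.81 and 1.35 and gli3.L and nkx2-2.S at -1.42 and -0.76 in the first contrast.

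Between primary mouth and anterior dorsal tissue, 1 of the 4 genes was higher (hhip.L), 2 were lower (gli3.L and nkx2-2.S) and shh.L did not pass. Over all probe sets tested, 4.68% were higher and 4.87% lower in primary mouth. Against ventral tissue, 3 of the 4 were higher in primary mouth and none was lower, where 4.42% of all probe sets were higher and 10.1% lower. Between anterior dorsal and ventral tissue, 3 of the 4 were higher in anterior dorsal tissue, where 10.5% of all probe sets were higher and 14.1% lower. The 4 genes were picked with such results known, so these counts describe them and support nothing further. The 3 contrasts share their samples.

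The rest of the pathway was read from a list of ligands, receptors, transducers, Gli factors and targets, of which 27 genes had a probe set with 1 symbol. The ligand genes ihh.S, dhh.L and dhh.S read 0.341 to 10.5 over all arrays and did not pass the filter on low signals. The receptor gene ptch1.S (0.624 to 11.4) and the Gli gene gli1.S (1.18 to 11.3), whose transcription is a standard readout of the pathway, did not pass it either. Neither did smo.S, the co-receptor gene cdon.L, gli2.S or the hhip relative hhipl2.S. Signals this low were not read as absence, and no comparison was made for them.

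Of 23 list genes other than the 4, 10 were tested. Between primary mouth and anterior dorsal tissue 1 was higher, 1 lower and 8 did not pass, with a median log2 fold change of -0.11 against -0.01 over all probe sets tested. Against ventral tissue 3 were higher in primary mouth, 7 did not pass and the median was 0.53 against 0.06. Between anterior dorsal and ventral tissue 5 were higher, 1 lower and 4 did not pass, with a median of 0.65 against 0.04. Of all probe sets tested, 4.68% were higher and 4.87% lower in the first of these contrasts. The shares were 4.42% and 10.1% in the second and 10.5% and 14.1% in the third.

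Among receptors, Smoothened (smo.L) was higher in anterior dorsal than in ventral tissue on its brighter probe set, by 1.03 ± 0.26 (adjusted p = 0.0116). It did not pass without anterior dorsal 2 (adjusted p = 0.0541), and the other smo.L probe set did not pass (0.69 ± 0.33, adjusted p = 0.157). The co-receptor gene boc.L and the other tested Gli gene, gli2.L, passed in no contrast.

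Among targets, the forebrain gene nkx2-1.L had the order of nkx2-2.S. It read 147 to 246 in anterior dorsal tissue, 85.0 to 100.3 in primary mouth and 8.57 to 9.71 in ventral tissue, and no tissues overlapped. Primary mouth was lower than anterior dorsal tissue by -0.97 ± 0.19 (adjusted p = 0.00556) and higher than ventral tissue by 2.14 ± 0.19 (adjusted p = 1.66e-05). The first difference was -1.18 within the arrays of higher actin ratio and -0.97 within those of lower ratio.

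The forkhead gene foxf1.L, a target in mesoderm next to the gut, had another order. It read 37.4 to 74.5 in primary mouth, 8.83 to 14.5 for anterior dorsal and 18.9 to 37.8 for ventral tissue. Primary mouth exceeded anterior dorsal tissue by 1.39 ± 0.22 (adjusted p = 0.00133), and the difference from ventral tissue did not pass (0.67, adjusted p = 0.0637). Outside primary mouth only ventral 1 lay above the filter level, so foxf1.L was tested through primary mouth, where it is high. Its call in primary mouth was favoured by the filter. Anterior dorsal was lower than ventral tissue by -0.72 (adjusted p = 0.0327), which no longer passed without anterior dorsal 1, 2 or 3 or ventral 1 or 2 (adjusted p = 0.053 to 0.114).

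The growth genes ccnd1, which codes for cyclin D1, and mycn are targets in dividing progenitors. Both ccnd1 copies exceeded the ventral level in primary mouth (0.81 and 0.91, adjusted p = 0.0102 and 0.00396) and likewise in anterior dorsal tissue (0.76 and 1.44, adjusted p = 0.00819 and 7.56e-05). The first of these calls, ccnd1.L in primary mouth, was lost without ventral 2 (adjusted p = 0.0506). For mycn.L only anterior dorsal against ventral tissue passed (0.93, adjusted p = 0.00475), and mycn.S passed in no contrast. In the set of lower actin ratio the ccnd1 values in primary mouth were 0.54 and 0.52, and in the set of higher ratio 0.96 and 1.27.

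**Figure D3:**
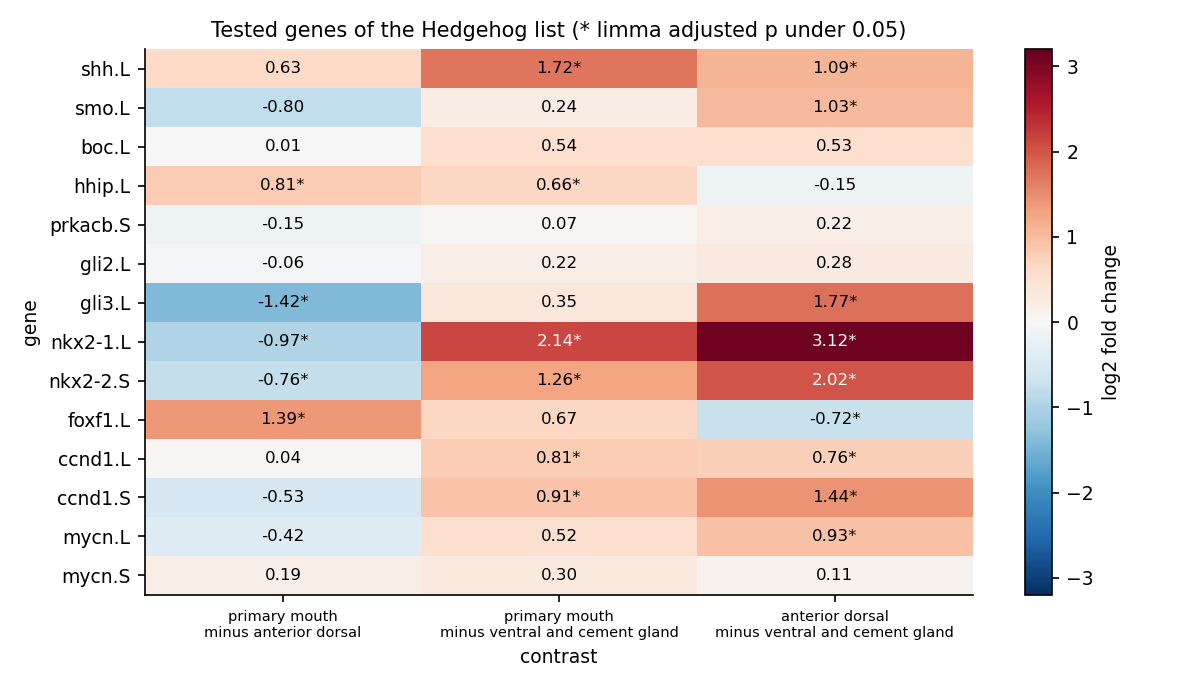
Log2 fold changes on the log2(signal + 16) scale of the 14 tested genes of the Hedgehog list in the 3 contrasts, with an asterisk where the limma adjusted p was under 0.05. Red is higher and blue lower in the first tissue named. The largest value is 3.12 for nkx2-1.L in anterior dorsal against ventral tissue. The sign of foxf1.L is opposite to that of nkx2-1.L in both contrasts with anterior dorsal tissue and the same in primary mouth against ventral tissue.

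The genes with the most similar profile over the 9 arrays were found by Pearson correlation of log2(signal + 16) with each gene's brightest probe set. The points are the same 9 arrays of 3 tissues, so any gene with the same order of tissues scores high, and the values are descriptions. For shh.L the most similar genes were sox9.S (r = 0.96), tgfbi.L (0.94), marcksl1.L (0.93), pcsk5.L (0.92) and ambp.L (0.92). The cartilage and neural crest factor gene sox9.S read 570 ± 176 (SD, n = 3) in primary mouth, 306 ± 50.8 for anterior dorsal and 159 ± 49.2 for ventral tissue, and tgfbi codes for a matrix protein.

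For hhip.L the most similar genes were plk2.S (0.98), nog.L (0.98), ntrk2.L (0.97), polg2.L (0.95) and cdh11.S (0.94). The gene nog.L, which codes for the BMP antagonist Noggin, read 134 ± 38.4 in primary mouth against 46.9 ± 6.57 and 52.3 ± 3.52, and cdh11.S, a cadherin gene, read 571 ± 38.7 against 249 ± 5.11 and 252 ± 9.37. For gli3.L they were pax6.L (0.99), fgfr4.L (0.98), fhl3.S (0.98), arl6ip1.L (0.98) and sox3.S (0.98), of which pax6 and sox3 code for transcription factors of the forebrain and of neural progenitors. For nkx2-2.S they were akirin1.L (0.99), ccnb3.L (0.99), rgma.L (0.99), pole2.L (0.98) and rrm1.L (0.98). The last 2 are DNA replication genes, and rgma codes for a guidance molecule of the nervous system.

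**Figure D4:**
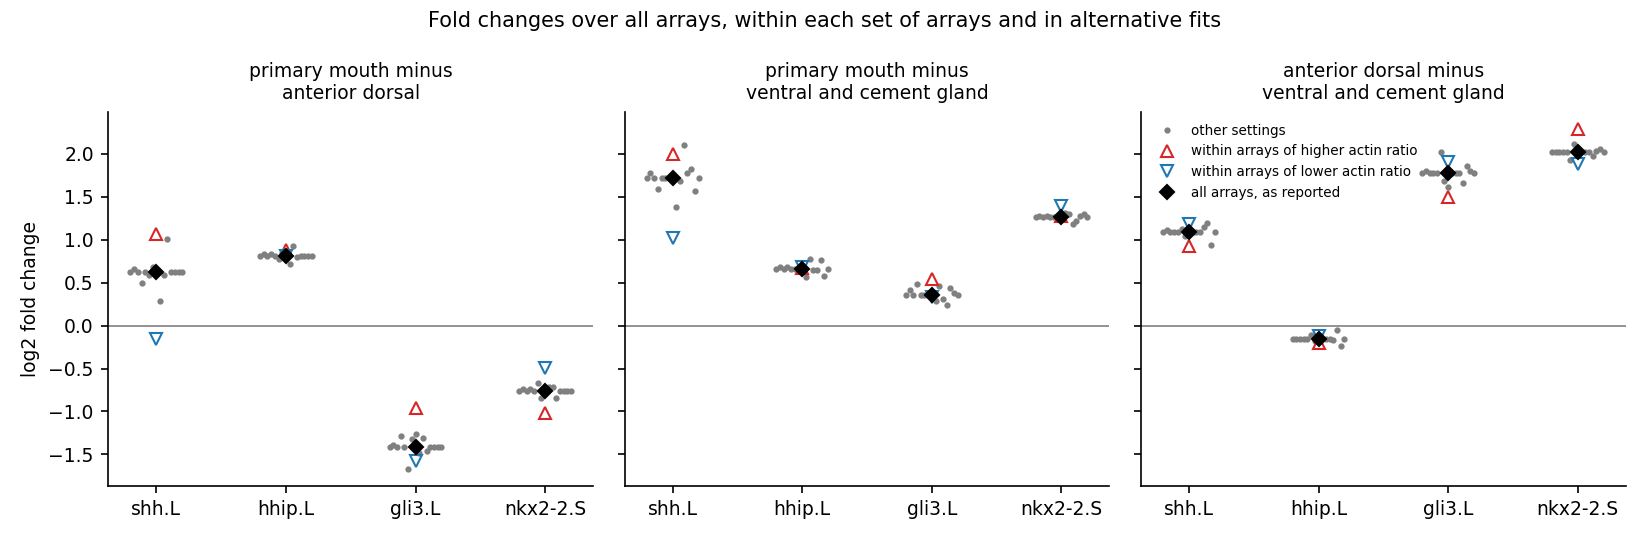
Log2 fold changes of the 4 genes (brightest probe set) in the 3 contrasts over all arrays (diamonds), within the arrays of higher or lower beta-actin ratio (triangles), and in the other fits on the log2(signal + 16) scale (grey points). The value of shh.L between primary mouth and anterior dorsal tissue runs from -0.16 to 1.07, while those of hhip.L in that contrast stay between 0.72 and 0.92.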

How the data were processed

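The deposited table holds 1 intensity per probe set and array, made by the authors in MAS5 according to the submitters' processing notes, whose version and settings the sources used here do not give. Mean signal without the top and bottom tails was 150 on all 9 arrays, so the arrays were compared as scaled, without detection calls. Of 15611 probe sets, 120 controls were left out, and 10011 with at least 3 arrays above their array's 40th percentile (30.9 to 35.8) were tested as log2(signal + 16). All 4 genes passed. The gene gli3.L was above that level on all 3 anterior dorsal and all 3 primary mouth arrays. For nkx2-2.S this held on 3 anterior dorsal arrays and 1 primary mouth array, so it passed through anterior dorsal tissue, where it is high.

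One limma 3.58.1 model (R 4.3.3, lmFit, eBayes with a trend) and 1 coefficient per tissue took in the 9 arrays, two-sided with Benjamini-Hochberg adjustment, and the script was tested on simulated data. With 3 arrays per tissue their number limits the precision. A gene's brightest tested probe set stood for it, except for the genes compared with the 4 by correlation. Symbols came from the platform annotation, and all 4 gene IDs were found in RefSeq's table for assembly Xenopus_laevis_v10.1, used for names only. Probes may also detect the homeologs shh.S, hhip.S, gli3.S and nkx2-2.L. No sequences are printed because none were given. Named are the 4 genes, list genes that passed, further ligands, receptors, inhibitors and Gli factors, and the 5 most correlated genes for each. Genes, lists and tests were chosen with earlier results of these data known.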

Additional observations from a re-analysis of the deposited data

How the results depend on the processing

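The 12 main differences (4 genes in 3 contrasts) were refitted in 19 alternative ways: pseudocounts of 1 and 32, no filter, quantile normalization, no variance trend, the actin set as a term and each set alone, a replicate block, each array left out, and only the tissues compared. Of 228 values, 211 kept direction and side of the threshold, 14 lost the call, 2 gained it and 1 changed sign. No filter, no variance trend, the replicate block and leaving out an array of the third tissue did not change any value. The fit of only the tissues compared did not either. In these fits the direction could not change, only the call.

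Within the arrays of higher actin ratio, shh.L gave 1.07 for primary mouth against anterior dorsal tissue and 0.92 for anterior dorsal against ventral tissue. There hhip.L in primary mouth gave 0.88 and 0.67 against anterior dorsal and ventral tissue. Against anterior dorsal tissue gli3.L gave -0.96 and nkx2-2.S -1.02. Within those of lower ratio, shh.L changed sign at -0.16 between primary mouth and anterior dorsal tissue. There hhip.L gave 0.81 and 0.68, and nkx2-2.S gave -0.50. In each of these contrasts at least 1 tissue has a lone array, which the fit assumes to vary like the others. Single calls from these fits are therefore not given. The counts of kept, lost and gained calls above include them, and such gains and losses carry little weight. In the fit of primary mouth and ventral tissue alone hhip.L kept its value of 0.66 and lost the call. With each array left out, shh.L ranged from 0.29 to 1.0 between primary mouth and anterior dorsal tissue and from 0.94 to 1.19 between anterior dorsal and ventral tissue, and hhip.L from 0.57 to 0.77 against ventral tissue.

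Probe sets past the threshold numbered 957, 1452 and 2469 in the 3 contrasts. They were 1603 and 2258 with the actin set as a term in the first 2 contrasts, and 514, 760 and 1043 within the higher set. They ranged from 608 (without anterior dorsal 3) to 1127 and from 955 (without ventral 3) to 1727 with each array left out, and the first was 618 without anterior dorsal 2. List genes past the threshold between primary mouth and anterior dorsal tissue numbered 5, 3 within the higher set and 7 with the replicate block. Against ventral tissue they numbered 6, and 9 with the block. With the replicate block the first 2 counts were 1654 and 2352, and no call of the 4 genes changed. Same-numbered arrays of different tissues deviated together by r of -0.23 to 0.68, below 0 for 2 of 9 pairs. Differently numbered arrays gave r of -0.68 to 0.45. The sign of r went with the actin set, above 0 in every pair within 1 set and below 0 in every pair across sets. The 2 same-numbered pairs below 0 joined primary mouth 2, of the higher set, to anterior dorsal 2 and ventral 2, of the lower set. Anterior dorsal 1 and primary mouth 2, differently numbered but both of the higher set, gave 0.45. The labels do not say that the number marks a shared clutch or day, so it was left out of the main fit, and 1a was read as 1. Whether same-numbered arrays share a source was not tested. By rank correlation the value of plk2.S with hhip.L was 0.85. The causes of these changes were not tested.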

Other observations

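The 2 gli2 copies code for the main activating Gli factor and were low on this array. In primary mouth 1a, 2 and 3 gli2.L read 34.6, 35.7 and 7.32, and gli2.S, which did not pass the filter on low signals, read 45.1, 40.6 and 22.4. Primary mouth 3 was the lowest of the 3 arrays in both copies, as it was for shh.L. It was also the lowest for the second hhip.L probe set (168), boc.L (51.1), nkx2-1.L (85.0), ccnd1.L (1009), ccnd1.S (456) and mycn.L (274). It was not the lowest for the first hhip.L probe set, gli3.L, nkx2-2.S, foxf1.L, smo.L, prkacb.S or mycn.S. These arrays were set side by side after their values were seen.

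The pathway gene nkx2-4.L, a forebrain relative of nkx2-1, did not pass the filter either. It read 21.3 to 34.5 in anterior dorsal tissue, 9.15 to 21.9 in primary mouth and 2.59 to 14.2 in ventral tissue.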
